A study of Mus musculus with 6 samples.

Results

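Transcripts of 9 complement genes were compared between sEH-/- and wild-type macrophages of the M2c state. They were the rows of the deposited count table whose symbol was *C1qa*, *C1qb*, *C1qc*, *C3*, *C4b*, *Cfb*, *Cfp*, *C3ar1* or *C5ar1*, that is 9 of 19309 genes, and all 9 carried enough counts to be tested. The sEH-/- mice lack the soluble epoxide hydrolase encoded by *Ephx2*, and the methods describe age- and strain-matched littermates of 8 to 10 weeks as the source of the cells. The methods list the line as a cross of an *Ephx2* allele with a ROSA-locus Cre, and the deletion is described as global and constitutive, so that it is not limited to macrophages. The methods list C57BL/6N mice without naming the strain of the sequenced wild-type animals, and most experiments of the study used cells from females. Bone marrow monocytes of both genotypes were differentiated for 7 days with M-CSF and GM-CSF, exposed to LPS and IFN-γ, for 24 h by the labels, and then given TGF-β1 in addition for 48 h. The methods differ from the labels, with a shorter exposure to LPS and IFN-γ and with 24 or 48 h of TGF-β1. There were 3 libraries per genotype, each from 1 mouse, and no library of naive or M1 cells, so that the values below compare genotypes within the M2c state only.

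Complement is a proteolytic cascade of the innate immune system. C1q recognizes antibodies, apoptotic cells and other surfaces and starts the classical pathway through the proteases C1r and C1s, which cleave C4 and C2. Factor B (*Cfb*), the protease of the alternative pathway convertase, and properdin (*Cfp*), which stabilizes that convertase, amplify the cleavage of C3, the central component. Fragments of C3 label particles for uptake, and the small fragments C3a and C5a signal through the G protein-coupled receptors C3aR (*C3ar1*) and C5aR1 (*C5ar1*). Although most circulating complement comes from the liver, macrophages make C1q and properdin and express both receptors, and LPS and IFN-γ are classical inducers of *C3* and *Cfb*.

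In sEH-/- macrophages *Cfp* and *C5ar1* rose, each 1.59-fold. These were the 2 of 9 genes past the criteria of the study, an adjusted p below 0.05 and a log2 fold change beyond ±0.585, in edgeR's quasi-likelihood test with Benjamini-Hochberg adjustment, in which 2.61% of the 13785 tested genes were called in either direction and 1.51% were called higher. Without the fold change criterion the same 2 genes passed, against 2.39% of all tested genes in that direction. For 4 of the 9 genes (*C3*, *Cfb*, *Cfp* and *C5ar1*) every sEH-/- library was above every wild-type library, which held for 11.8% of all tested genes. *Cfb* (2.11-fold), *C3* (1.49-fold), *C1qa* (1.52-fold) and *C4b* (3.43-fold) had higher means in sEH-/- cells without passing the criteria in edgeR, and *C1qb*, *C1qc* and *C3ar1* lay between 1.13-fold and 1.22-fold. DESeq2, the method of the study, called *Cfb* and *C1qa* besides *Cfp* and *C5ar1*, with 472 of the 13785 tested genes called. In edgeR the log2 fold change was above 0 for all 9 genes, with a median of 0.61, against a median of −0.00092 over all tested genes. A log2 fold change above 0 was found for 49.8% of all tested genes and for 62.3% of those with at least 0.15 counts per exonic base, to which 7 of the 9 genes belonged. In bulk RNA, more cells of a kind and more RNA per cell cannot be told apart.

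**Figure D1:**
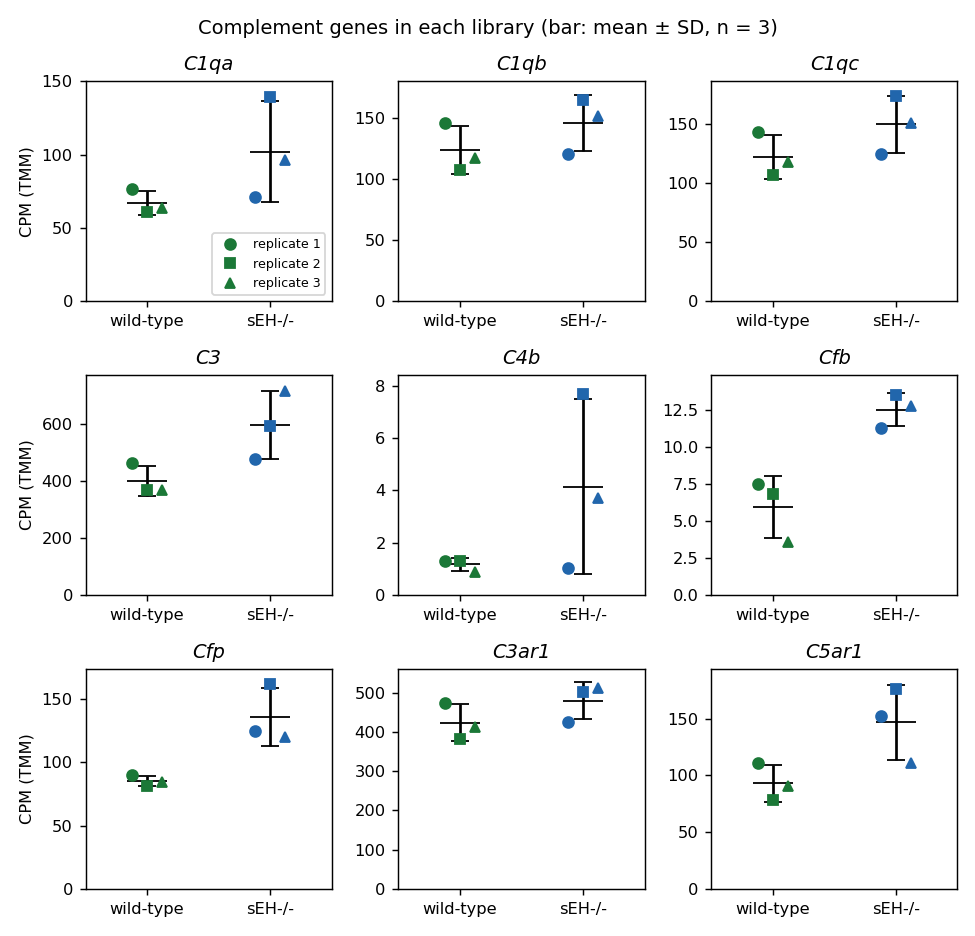
TMM-normalized CPM (y axes, from 0) of the 9 complement genes in the 3 wild-type and 3 sEH-/- libraries, with symbols for the replicate number and bars for the mean ± SD. The genotypes do not overlap for *C3*, *Cfb*, *Cfp* and *C5ar1*, and sEH-/- replicate 1 lies among the wild-type libraries for *C1qa*, *C1qb*, *C1qc*, *C4b* and *C3ar1*.

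The libraries held between 4400197 and 6096440 counts. *Ephx2* counts were 4, 2 and 1 in the sEH-/- and 26, 49 and 57 in the wild-type libraries, so that the labels and the targeted transcript agreed. All 10 macrophage markers examined (among them *Adgre1*, *Csf1r*, *Cd68* and *Fcgr1*) were abundant, with a summed level of 2360 to 2910 CPM in sEH-/- and 2110 to 2620 CPM in wild-type libraries and no called gene. Their log2 fold changes lay between 0.069 (*Cd68*) and 0.50 (*Cd14*). *Cd14* was higher in every sEH-/- library and met the adjusted p (edgeR, 0.029) but not the fold change criterion. Of the markers of other cells, 1 of 7 for lymphocytes (*Klrb1c*) and 1 of 5 for erythroid cells (*Klf1*) were in the table, at no more than 0.807 and 1.97 CPM. The stromal and endothelial markers summed to 12.1 to 30.3 CPM in sEH-/- and 9.89 to 64.4 CPM in wild-type libraries, with the highest value in wild-type replicate 2, in which *Col1a2* had 171 counts. Dendritic cell markers summed to 27.0 to 57.7 and 42.2 to 58.9 CPM, respectively, and *Cd209a* had 0 counts throughout. *Zbtb46* had 31, 16 and 40 counts in the sEH-/- and 42, 90 and 59 in the wild-type libraries (log2 fold change −0.98, edgeR adjusted p = 0.11), with overlap in CPM. The genotypes also overlapped for *Clec9a* and *Ccr7*. Neutrophil markers summed to 284 to 360 and 266 to 317 CPM, most of it *Mmp8*. *S100a8* had 24.0, 29.7 and 27.1 CPM in the sEH-/- and 17.1, 18.2 and 20.1 CPM in the wild-type libraries (log2 fold change 0.54, edgeR adjusted p = 0.057). *Camp* had 10, 3 and 4 counts against 1 in each wild-type library, so that both were higher in every sEH-/- library. In CPM this also held for *Elane* and *Ngp*, which had at most 3 and 4 counts. For *S100a9*, also with at most 3 counts, *Ltf* and *Mmp8* the genotypes overlapped. None of the markers tested was called in either direction, and their part in the differences of the complement genes was not tested.

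On a per-length scale (CPM per kilobase of the longest coding transcript), the most abundant of the 9 transcripts in wild-type cells was *C1qb*, with 113.5 ± 18.2 (SD, n = 3 mice), followed by *C1qc* with 102.0 ± 15.5, *C3ar1* with 98.3 ± 10.8, *C3* with 78.1 ± 10.5 and *C1qa* with 64.4 ± 8.03. In this series of 5 genes the libraries of each gene overlapped those of the next, so that neighbours could not be ranked. *Cfp* (52.0 ± 2.53), *C5ar1* (36.7 ± 6.46), *Cfb* (2.17 ± 0.76) and *C4b* (0.218 ± 0.044) then followed without overlap. In sEH-/- cells the order was the same except that *C3* (116.4 ± 23.3) stood before *C3ar1* (111.4 ± 11.03), and these 2 genes overlapped in both genotypes. The counts of the C1q chains, *C3*, *C3ar1* and *C5ar1* hardly followed depth, as described below, so that differences in level between these genes are uncertain. *Cfb* and *C4b*, with few counts per base, lay far lower.

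The 250 bases before the RefSeq transcription start were available (GRCm38.p6) for 6 of the 9 genes, *C1qb*, *C1qc*, *C3*, *Cfp*, *C3ar1* and *C5ar1*. They were searched on both strands for letters typical of factors that act downstream of LPS, IFN-γ or myeloid differentiation, namely the κB consensus (found in 7.01% of 27025 such promoters), 2 copies of GAAA with 2 bases between them, as in interferon-stimulated response elements (3.04%), TTCNNNGAA of STAT sites (7.18%), TGANTCA of AP-1 sites (6.87%), GAGGAA of PU.1 sites (23.1%) and TTGCNNAA of C/EBP sites (9.55%). Those of the neighbouring C1q genes, of *C3* and of the called genes *Cfp* and *C5ar1* are shown 5′ to 3′ on the strand of the gene, with matches in capitals.
C1qb (chr4:136886201-136886450, minus strand): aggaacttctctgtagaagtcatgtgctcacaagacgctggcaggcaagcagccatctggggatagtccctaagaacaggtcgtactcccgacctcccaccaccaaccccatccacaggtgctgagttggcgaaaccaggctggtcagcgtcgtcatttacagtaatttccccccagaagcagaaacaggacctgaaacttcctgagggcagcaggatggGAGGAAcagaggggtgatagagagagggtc
C1qc (chr4:136892915-136893164, minus strand): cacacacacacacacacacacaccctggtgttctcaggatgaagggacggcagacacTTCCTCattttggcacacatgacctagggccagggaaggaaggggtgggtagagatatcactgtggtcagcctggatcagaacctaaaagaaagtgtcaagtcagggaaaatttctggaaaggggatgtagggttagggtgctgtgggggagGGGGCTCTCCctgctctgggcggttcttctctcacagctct
C3 (chr17:57228137-57228386, minus strand): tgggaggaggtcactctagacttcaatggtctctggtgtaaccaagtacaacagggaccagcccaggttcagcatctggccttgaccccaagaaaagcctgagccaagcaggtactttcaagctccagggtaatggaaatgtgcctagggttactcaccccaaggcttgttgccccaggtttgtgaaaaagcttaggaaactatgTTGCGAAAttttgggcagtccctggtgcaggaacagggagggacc
Cfp (chrX:20931556-20931805, minus strand): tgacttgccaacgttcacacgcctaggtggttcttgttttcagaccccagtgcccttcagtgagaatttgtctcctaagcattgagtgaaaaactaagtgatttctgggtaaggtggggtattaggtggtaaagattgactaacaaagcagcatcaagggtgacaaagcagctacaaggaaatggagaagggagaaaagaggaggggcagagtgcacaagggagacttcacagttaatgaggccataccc
C5ar1 (chr7:16259339-16259588, minus strand): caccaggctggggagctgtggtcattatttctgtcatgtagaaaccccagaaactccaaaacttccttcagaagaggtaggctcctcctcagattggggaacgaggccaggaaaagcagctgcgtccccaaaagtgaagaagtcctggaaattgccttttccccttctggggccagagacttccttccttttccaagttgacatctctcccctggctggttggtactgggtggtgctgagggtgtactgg
The *C1qb* sequence held GAGGAA from 30 to 25 bases before the start. In *C1qc* the same letters lay on the other strand from 193 to 188 bases before the start, and a match to the κB consensus lay from 41 to 32 bases before it. The *C3* sequence held TTGCGAAA from 45 to 38 bases before the start, and that of *C3ar1*, not shown, TGACTCA from 22 to 16 bases before it. None of these letters occurred in the windows of *Cfp* and *C5ar1*, and no 2 matches overlapped. The RefSeq starts differ from the gene ends given here for the printed windows of *C1qb*, *C1qc* and *C5ar1*. The *C1qb* window, which reaches down to 136886201, stops short of the annotated gene end at 136886187. Of the 250 bases of the *C1qc* window 151, with its κB match, and of those of the *C5ar1* window 202 lie inside the annotated gene. For *C3ar1* this applies to 4 bases. A match to so few letters does not show that a factor binds there.

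The 3 chains of C1q are encoded next to each other on the minus strand of mm10 chromosome 4, *C1qb* (ENSMUSG00000036905) from 136880129 to 136886187, *C1qc* (ENSMUSG00000036896) from 136889804 to 136893065 and *C1qa* (ENSMUSG00000036887) from 136895917 to 136898803. *C1qa* had 71.0, 139 and 96.0 CPM in the sEH-/- and 76.5, 60.9 and 63.6 CPM in the wild-type libraries. sEH-/- replicate 1 lay within the wild-type range, and replicate 2 stood well above the other 5 libraries. The log2 fold change of 0.61 (SE 0.20) did not pass the threshold (edgeR adjusted p = 0.11, exact two-sided permutation p = 0.2, where 3 mice against 3 cannot go below 0.1), but DESeq2 called it (0.61, adjusted p = 0.019). Without sEH-/- replicate 1 it was called as well (0.82, adjusted p = 0.022), and without sEH-/- replicate 2 it was 0.33 (adjusted p = 0.30). *C1qb* had 120, 165 and 151 CPM in the sEH-/- and 146, 107 and 117 CPM in the wild-type libraries. *C1qc* ran alongside, with 125, 174 and 151 CPM against 143, 107 and 118 CPM. The ranges of the genotypes overlapped for both chains, and their log2 fold changes were 0.24 (SE 0.13, edgeR adjusted p = 0.31) and 0.29 (SE 0.13, edgeR adjusted p = 0.21).

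The deposited counts of the C1q chains followed the depth of sequencing very little. In wild-type replicates 1, 2 and 3, *C1qb* had 662, 662 and 655 counts and *C1qc* 652, 660 and 657, although the total of replicate 2 was 1.32 times that of replicate 1. The authors had removed duplicate reads, after which a transcript can hold only a limited number of distinct reads. Whether this accounts for these counts was not tested. *C1qb* carried 0.636 counts per exonic base, *C1qa* 0.416 and *C1qc* 0.364, or 0.584 per base of its coding transcript, where the highest value of any tested gene was 0.972. Between the same 2 libraries, and among tested genes with a mean of 50 counts or more, those with fewer than 0.02 counts per exonic base had a median count ratio of 1.48 and those with 0.4 or more one of 1.13. The ratio was 1.0 for *C1qb*, 1.01 for *C1qc*, 1.08 for *C1qa* and *C3* and 1.09 for *C3ar1*. It was lowest for *C5ar1* (0.958), which carried 0.242 counts per exonic base, where the median of genes with 0.2 to 0.4 was 1.24. For *Cfp*, *Cfb* and *C4b* the ratio was 1.23, 1.24 and 1.33. Dividing counts that do not follow the total by that total gives lower CPM in deep and higher CPM in shallow libraries.

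**Figure D2:**
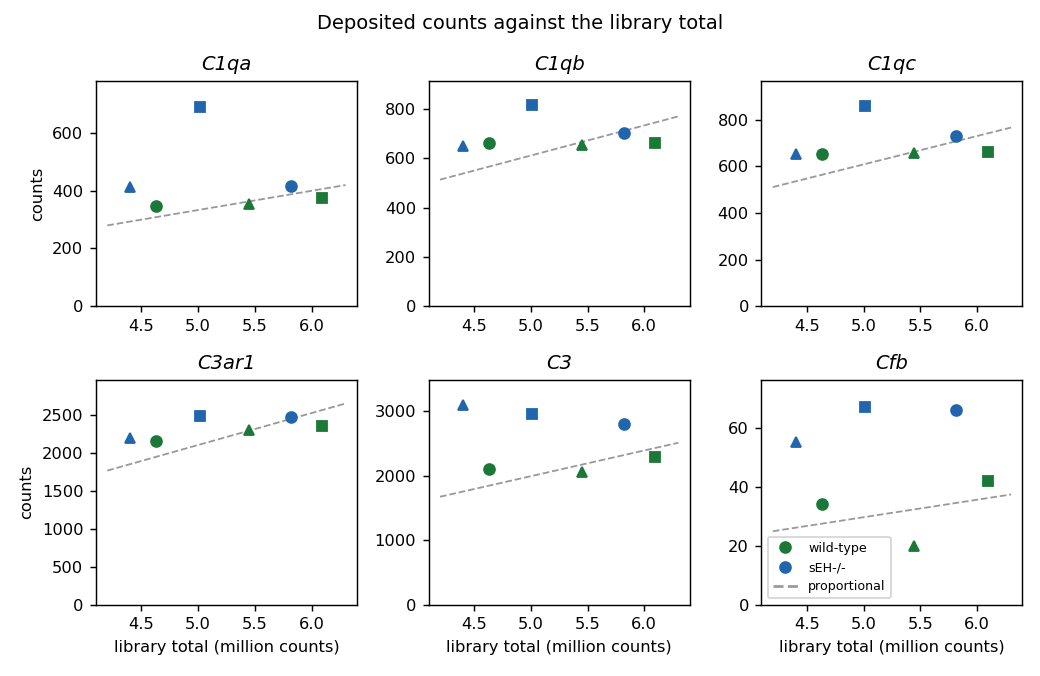
Deposited counts (y axes, from 0) of 6 complement genes against the library total, with wild-type libraries in green, sEH-/- libraries in blue, circles, squares and triangles for replicates 1, 2 and 3 and a dashed line for counts proportional to the wild-type total. The wild-type counts of *C1qb* and *C1qc* stay between 652 and 662 from the smallest to the largest wild-type library.

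**Figure D3:**
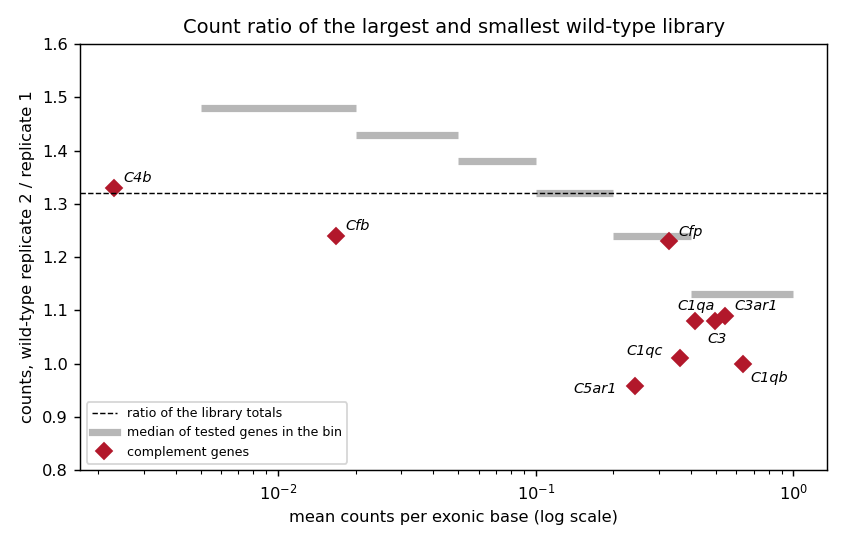
Ratio of the counts in wild-type replicate 2 to those in replicate 1 (y axis) against the mean counts per exonic base (log x axis) for the 9 complement genes (diamonds), with the median of tested genes with a mean of 50 counts or more in 6 ranges as grey bars and the ratio of the library totals, 1.32, as a dashed line. The median falls from 1.48 to 1.13 as genes become denser, and *C1qb* lies at 1.0.

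After a correction that assumed at most 1 count for each exonic base, the log2 fold changes became 0.85 (SE 0.27) for *C1qa*, 0.36 (SE 0.16) for *C1qb* and 0.36 (SE 0.15) for *C1qc*, with adjusted p-values from edgeR of 0.094, 0.21 and 0.17. When the length of the coding transcript was used instead, a setting chosen after seeing the data, the value of *C1qc* was 0.44 (SE 0.17, edgeR adjusted p = 0.14). No C1q chain was called under either correction. Equal counts stay equal under such a correction, so that *C1qb*, with 662 counts in wild-type replicates 1 and 2, still did not follow the total. The same limit applies to the corrected values of the other genes.

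The proteases that join C1q in the C1 complex were among the other pathway genes examined. *C1s1*, the gene of C1s, had 41.2, 52.3 and 71.9 CPM in the sEH-/- and 21.1, 12.98 and 16.0 CPM in the wild-type libraries. Every sEH-/- library was above every wild-type library, and *C1s1* rose with a log2 fold change of 1.73 (SE 0.22, edgeR adjusted p = 0.0087). Of 18 alternative fits, the call was lost in 1, that without wild-type replicate 3 (1.71, adjusted p = 0.084). *C1ra*, the gene of C1r, had 67.4, 92.2 and 90.4 against 65.3, 48.5 and 52.5 CPM and was called at the edge of the criteria (log2 fold change 0.59, SE 0.14, edgeR adjusted p = 0.047). It lost its call in 9 of the 18 alternative fits, among them the 4 that left out replicate 2 or 3 of either genotype, in which the adjusted p lay between 0.074 and 0.21. Both genes belong to pairs of close copies in the mouse genome (*C1ra* and *C1rb*, *C1s1* and *C1s2*), and since reads that map to several places had been removed, their absolute levels are uncertain. *C1s2* had 0 to 5 counts.

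*C4b* (ENSMUSG00000073418, mm10 chromosome 17, 34728380 to 34743882, minus strand) encodes complement C4. It had 6, 38 and 16 counts in the sEH-/- and 6, 8 and 5 counts in the wild-type libraries, and sEH-/- replicate 1 was at the wild-type level. The log2 fold change was 1.78 (SE 0.64, edgeR adjusted p = 0.13), and without sEH-/- replicate 1 it was 2.28 and called (adjusted p = 0.023). Without sEH-/- replicate 2 it was 0.94 (adjusted p = 0.49). *C4a*, its close copy, had 4, 2 and 5 counts against 4, 11 and 15 (log2 fold change −1.29, SE 0.53, edgeR adjusted p = 0.18). Reads shared by both copies had been removed, so that either value can be off. *C2*, which forms the classical convertase with C4, had 49, 37 and 45 against 34, 50 and 64 counts, and no difference was detectable (log2 fold change −0.054, SE 0.24, edgeR adjusted p = 0.92).

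*C3* (ENSMUSG00000024164, mm10 chromosome 17, 57203970 to 57228136, minus strand) had 2805, 2950 and 3101 counts in the sEH-/- and 2108, 2287 and 2055 counts in the wild-type libraries. These were 480, 595 and 719 CPM and 463, 371 and 368 CPM, respectively, so that the genotypes did not overlap but sEH-/- replicate 1 was close to wild-type replicate 1. The sEH-/- mean was 598 ± 120 CPM and the wild-type mean 401 ± 54.1 CPM (± SD of 3 mice). The log2 fold change of 0.58 (SE 0.15, edgeR adjusted p = 0.055) missed both criteria narrowly. DESeq2 gave an adjusted p of 3.3e-04 and a log2 fold change of 0.58, again just under 0.585. *C3* was called in 4 of 18 alternative fits, those with counts corrected for the ceiling (0.79, SE 0.17, edgeR adjusted p = 0.033 for exonic length, and 0.80 for the coding transcript) and those in which replicate 1 of the sEH-/- (0.71, adjusted p = 0.022) or of the wild-type group (0.69, adjusted p = 0.028) was left out. In none of the fits was it lower in sEH-/- cells, and its log2 fold change ranged from 0.43 to 0.80. *C3* carried 0.496 counts per exonic base.

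Of the alternative pathway, *Cfp* (ENSMUSG00000001128, mm10 chromosome X, 20925454 to 20931555, minus strand) had 125, 161 and 120 CPM in the sEH-/- and 89.5, 81.3 and 84.3 CPM in the wild-type libraries. All 3 sEH-/- libraries were above the wild-type libraries, which themselves differed little (135 ± 22.7 against 85.0 ± 4.15 CPM, mean ± SD of 3 mice each). Properdin transcripts thus rose with a log2 fold change of 0.67 (SE 0.11, edgeR adjusted p = 0.018, DESeq2 adjusted p = 1.5e-05). The call was kept in 15 of 18 alternative fits. It was lost when sEH-/- replicate 2 was left out, where the log2 fold change was 0.55 (adjusted p = 0.021), or when wild-type replicate 2 or 3 was, where it was 0.64 and 0.67 (edgeR adjusted p = 0.092 and 0.12). After correction for the ceiling the value was 0.82 (SE 0.13, edgeR adjusted p = 0.017).

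*Cfb* (ENSMUSG00000090231, mm10 chromosome 17, 34856374 to 34862518, minus strand) was expressed at a low level, with 66, 67 and 55 counts in the sEH-/- and 34, 42 and 20 counts in the wild-type libraries. The sEH-/- mean was 12.5 ± 1.13 CPM and the wild-type mean 5.96 ± 2.08 CPM (± SD of 3 mice), and the sEH-/- libraries were all above the wild-type libraries. The log2 fold change was 1.07 (SE 0.27), with an adjusted p of 0.052 from edgeR, 0.021 from DESeq2 and 0.049 from limma-voom. *Cfb* was called in 9 of 18 alternative fits. When sEH-/- replicate 2 or wild-type replicate 2 or 3 was left out, its adjusted p was 0.15, 0.17 and 0.18 from edgeR.

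*C5ar1* (ENSMUSG00000049130, mm10 chromosome 7, 16246743 to 16259540, minus strand) had 153, 176 and 111 CPM in the sEH-/- and 111, 78.4 and 90.3 CPM in the wild-type libraries. In counts, sEH-/- replicates 1 and 2 (892 and 874) stood apart from sEH-/- replicate 3 (480), which lay just under the wild-type libraries (483 to 504). The CPM of sEH-/- replicate 3 exceeded that of wild-type replicate 1 by less than 1 unit. The counts of *C5ar1* did not follow the total, since wild-type replicate 2 had 0.958 times those of replicate 1 at 1.32 times the total. The genotypes thus separated only after scaling to the library total. C5aR1 transcripts rose with a log2 fold change of 0.67 (SE 0.16, edgeR adjusted p = 0.049), and DESeq2 gave the same size of change (adjusted p = 0.0010). The call was lost in 7 of 18 alternative fits, with limma-voom (adjusted p = 0.056), thinned counts (0.051), a covariate for the library total (0.086), or when sEH-/- replicate 1 or 2 or wild-type replicate 2 or 3 was left out (0.065 to 0.21). *C5ar2*, the second C5a receptor, had 29.8, 30.7 and 20.9 CPM against 25.1, 17.04 and 17.4 CPM, again with sEH-/- replicate 3 the lowest of its genotype (log2 fold change 0.47, SE 0.19, edgeR adjusted p = 0.18).

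*C3ar1* (ENSMUSG00000040552, mm10 chromosome 6, 122847138 to 122856161, minus strand) was the most even of the 9 genes, with 425, 502 and 511 CPM in the sEH-/- and 474, 383 and 413 CPM in the wild-type libraries. The genotypes overlapped, and the log2 fold change of 0.18 (SE 0.11, edgeR adjusted p = 0.35) stayed between 0.11 and 0.27 in 18 alternative fits without a call. After correction for the ceiling it was 0.23 (SE 0.11). The density of *C3ar1* was 0.542 counts per exonic base and that of *C5ar1* 0.242. Whether the difference between genotypes was unequal for the 2 receptors was not tested.

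**Figure D4:**
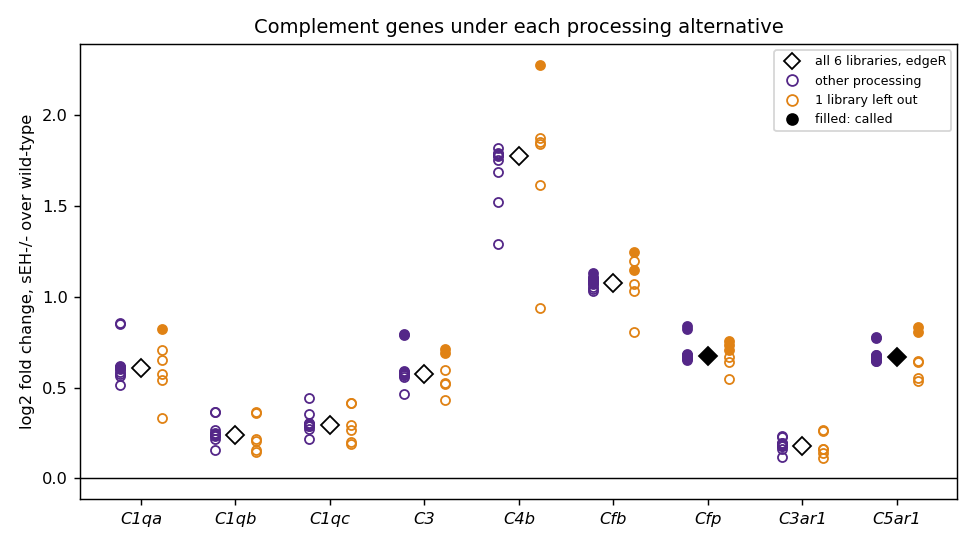
Log2 fold change (sEH-/- over wild-type, y axis) of the 9 complement genes with all 6 libraries in edgeR (diamonds), under other processing (left circles) and with 1 library left out (right circles); filled symbols passed the criteria. All values are above 0, *Cfp* keeps its call in 15 and *C5ar1* in 11 of 18 alternatives, and *C1qb*, *C1qc* and *C3ar1* are never called.

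Other genes of the cascade were taken from a list of 54 regulators, components and receptors. Of the 28 that could be tested, 3 were called higher (*C1s1*, *C1ra* and *Lair1*) and 0 lower in edgeR's quasi-likelihood test, against 1.51% and 1.1% of all tested genes. The median log2 fold change of the 28 genes was 0.11, with 18 above and 10 below 0. Without wild-type replicate 3, edgeR called 0 of them, with 7 at an unadjusted p below 0.05. The share of all tested genes below that p was not counted, so that these 7 do not show an excess. DESeq2 called 2 of the 28 with all libraries. *Lair1*, the gene of an inhibitory receptor that binds collagens and C1q, had 119, 189 and 146 CPM in the sEH-/- and 107, 61.8 and 77.3 CPM in the wild-type libraries (log2 fold change 0.89, SE 0.20, edgeR adjusted p = 0.040). It lost its call in 5 of 18 fits, with DESeq2 (adjusted p = 0.052), with a block for the replicate number (0.054) and when wild-type replicate 2 or 3 (both 0.17) or sEH-/- replicate 2 (0.11) was left out.

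**Figure D5:**
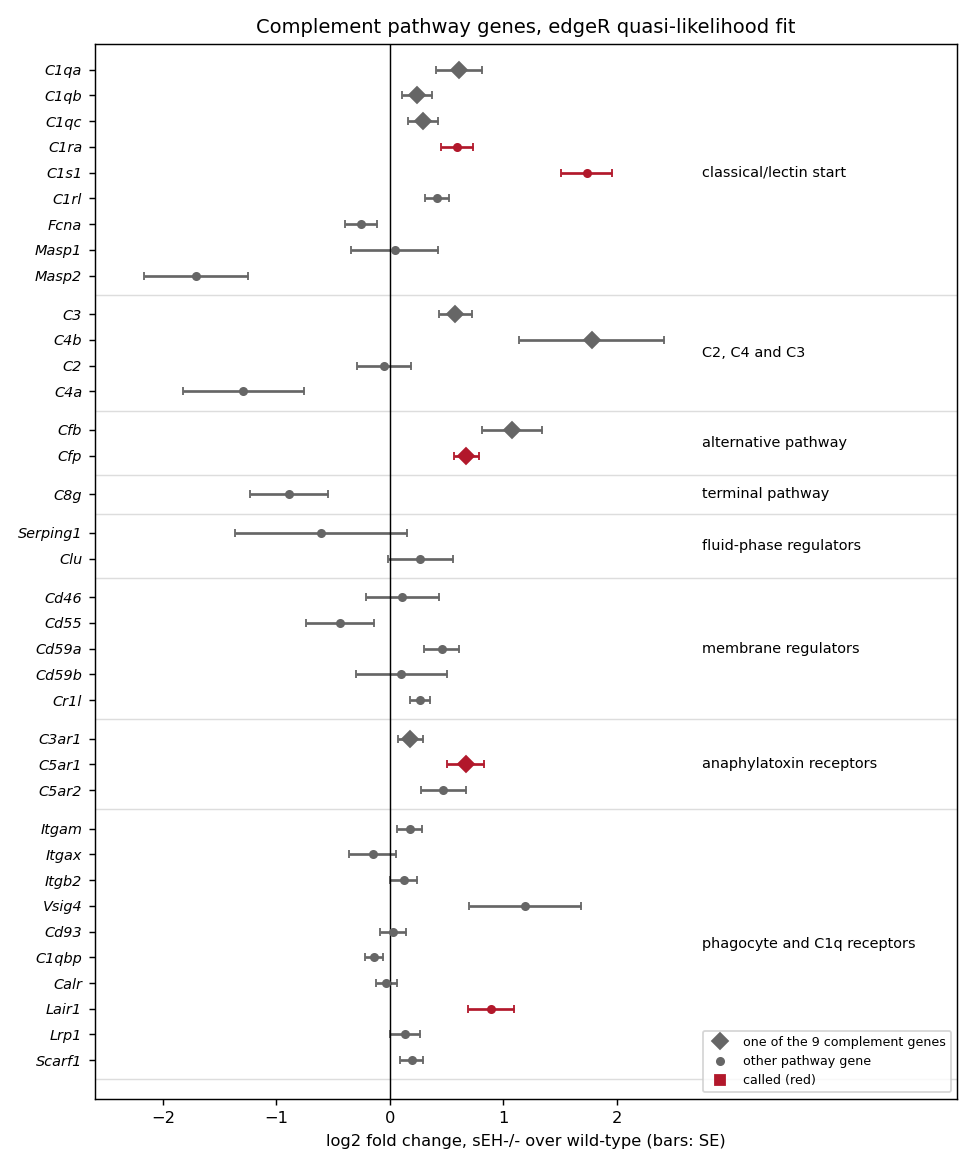
Log2 fold change ± SE (x axis, sEH-/- over wild-type) of 36 of the 37 tested complement genes, grouped by role, with the 9 genes described as diamonds, the others as circles and called genes in red. The called genes, *C1ra*, *C1s1*, *Cfp*, *C5ar1* and *Lair1*, all lie to the right of 0.

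No receptor through which phagocytes take up C3-coated particles was called. *Itgam* and *Itgb2*, the chains of complement receptor 3, had log2 fold changes of 0.17 (SE 0.11, edgeR adjusted p = 0.37) and 0.12 (SE 0.12, adjusted p = 0.59). For *Itgax*, the chain of complement receptor 4, the value was −0.15 (SE 0.21, adjusted p = 0.71). *Vsig4*, a receptor for C3b typical of resident macrophages, had 8, 14 and 20 against 8, 7 and 5 counts and was not called (1.19, SE 0.49, edgeR adjusted p = 0.18). The C1q-binding proteins *Cd93*, *C1qbp*, *Calr*, *Lrp1* and *Scarf1* had log2 fold changes between −0.14 and 0.19, none of them called.

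Among regulators that protect cells from complement, *Cr1l* (0.26, SE 0.088, edgeR adjusted p = 0.11) and *Cd59a* (0.45, SE 0.15, adjusted p = 0.11) had higher CPM in every sEH-/- library without being called. The counts of *Cr1l* overlapped (516, 532 and 395 against 370, 469 and 457). Of the 28 other pathway genes 6 were without overlap higher and 1, *Masp2*, lower in sEH-/- cells. This held for 11.8% and 14.5% of all tested genes. *Cd55* had 79, 45 and 50 counts against 37, 122 and 101, with the ranges overlapping (−0.44, SE 0.30, edgeR adjusted p = 0.41). Of the lectin pathway, *Masp2* had 5, 3 and 3 counts against 6, 16 and 18 (−1.71, SE 0.46, edgeR adjusted p = 0.061) and *Fcna*, a ficolin, 148, 140 and 133 against 124, 229 and 198 (−0.26, SE 0.14, adjusted p = 0.31). Of the terminal pathway *C8g* was tested, with 21, 21 and 40 counts against 45, 77 and 47 (−0.89, SE 0.34, edgeR adjusted p = 0.15), and *Hc*, the gene of C5, had 0 or 1 counts per library. *C8g* was called lower when sEH-/- replicate 3 was left out (−1.388, edgeR adjusted p = 0.029). *Masp2* was called lower when wild-type replicate 1 was (−1.965, edgeR adjusted p = 0.028).

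Every pair of the 9 genes had a positive correlation over the 6 libraries. Of these, the log2 CPM of *C1qb* correlated with that of *C1qc* (r = 0.99) and *C3ar1* (r = 0.975), and that of *Cfp* with *C5ar1* (r = 0.923). The lowest correlation between any pair was 0.581, for *C4b* and *C5ar1*. These values are a description over 6 libraries that share the genotype difference and the scaling to the library total, and for *C1qb* and *C1qc* the wild-type counts themselves hardly moved. The genes most similar to the mean profile of the C1q chains among 10270 genes with 50 or more counts on average were *Cd300ld* (r = 0.998), *Tifa*, *Tmem219*, *Zranb3* and *Psmc3*, and 542 genes had an r above 0.9. The profile of *C3* was most similar to those of *Ubap2l* (r = 0.991), *Napsa*, *Dcstamp*, *Rassf4* and *Eva1b*.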

How the data were processed

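Counts per gene of 6 libraries (3 sEH-/- and 3 wild-type) were used as the authors deposited them, without normalization. Per the methods and the labels, reads were trimmed with Trimmomatic, aligned with STAR to mm10, cleared of duplicates (Picard) and of mitochondrial, ribosomal and multi-mapping reads, and then counted by featureCounts over exons, on the correct strand and without reads over several genes. Genes with a mean above 5 counts were tested in R 4.3.3 with edgeR 4.0.16 (TMM, glmQLFit, glmQLFTest, no covariates), with p-values adjusted over all 13785 genes (99.82% of counts). A gene was called at an adjusted p below 0.05 and a log2 fold change beyond ±0.585 (1.5-fold), as in the methods of the study, which used DESeq2. CPM use TMM-normalized library sizes, and an SE was obtained from each log2 fold change and its F statistic (change over root F). Correlations used log2 CPM with a prior count of 2. DESeq2 1.42.0 and limma 3.58.1 (voom) were alternatives, with other normalization and filters, thinning, a ceiling correction, the library total or replicate number as a term, other thresholds and each library left out. Exonic lengths came from GENCODE M21 (mm10), which held 19286 of the 19309 identifiers. Each library came from 1 mouse, and no 2 libraries of a genotype agreed within sampling noise (chi-square per degree of freedom 2.24 to 4.89). The scripts were tested on simulated data in which counts followed the library total, which does not cover genes whose counts did not. The genes described and the lists were chosen with earlier results of these data known. Besides the 9 genes, called pathway genes and pathway genes of interest by role were named, some with a mean under 50 counts after their values were seen. One tested pathway gene is not reported here by name, though it is included in the counts.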

Additional observations from a re-analysis of the deposited data

How the results depend on the processing

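The direction of all 9 genes was the same in all alternative fits (filterByExpr and a minimum of 10 counts in every library left *C4b* untested). The number called was 2. It was 4 with DESeq2, 4 with either ceiling correction, 1 after thinning, 1 with the library total as a covariate and 0 in a test against a fold change of 1.2, where 6 genes had an unadjusted p below 0.05. With 1 library left out it ranged from 0 to 5, with 5 without sEH-/- replicate 1 and 4 without wild-type replicate 1. It was 0 when sEH-/- replicate 2 or wild-type replicate 2 or 3 was omitted. In those fits 5, 6 and 5 genes had an unadjusted p below 0.05 in edgeR. The share of all tested genes below that p was not counted, there or in the test against a fold change of 1.2. These numbers therefore do not show an excess. Of the 28 other pathway genes 3 were called, against 1 with the replicate block, 1 in the test against a fold change of 1.2 and 0 to 4 with a library left out. The calls with a library left out include *C8g* and *Masp2* as lower. Of all genes 360 were called, against 171 with the library total as a covariate, 234 with the replicate block, 95 against a fold change of 1.2, 553 without a fold change threshold and 6 to 625 with a library left out (6 without wild-type replicate 3, 25 without wild-type replicate 2, 96 without sEH-/- replicate 2, 570 without sEH-/- replicate 3 and 625 without wild-type replicate 1). The cause of these shifts was not tested. Libraries with the same replicate number did not deviate together (r of −0.0818, −0.26 and −0.0367), so that the numbers were not taken as pairs, and the block changed no call among the 9 genes. Counts that did not follow the library total and few counts (*C4b*, *C4a*, *Masp2*, *Vsig4*) limit what could be detected.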

Other observations

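The 3 C1q chains were not in the same proportion in every library. The ratio of *C1qa* to *C1qb* counts was 0.589, 0.844 and 0.636 in the sEH-/- and 0.526, 0.566 and 0.542 in the wild-type libraries, and that of *C1qc* to *C1qb* counts stayed between 0.985 and 1.06. The chains differ in counts per exonic base (0.416 for *C1qa*, 0.636 for *C1qb* and 0.364 for *C1qc*, or 0.584 per base of the coding transcript of *C1qc*), and the part of this in the ratios was not tested. The ratio of *C5ar1* to *C5ar2* counts was 5.13, 5.75 and 5.33 in the sEH-/- and 4.42, 4.6 and 5.2 in the wild-type libraries. The summed level of the C1q chains was 317, 477 and 398 CPM in the sEH-/- and 365, 275 and 299 CPM in the wild-type libraries, so that sEH-/- replicate 1 lay within and replicates 2 and 3 above the wild-type range.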
